A study of Mus musculus with 10 samples.

Results

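Messenger RNA levels of translation initiation factors were measured in regulatory T (Treg) cells, a CD4 T cell lineage marked by Foxp3 that keeps other immune cells in check. The genes were those whose only symbol on the platform begins with Eif followed by a digit from 1 to 6, which takes in the factors, the Eif2ak kinases that phosphorylate eIF2 and the Eif4ebp proteins that bind eIF4E. There were 51 of them among 22180 genes. A gene was read from 1 probe set, the one with the highest mean over the 10 arrays. The cells came by sorting from mixed bone marrow chimeras, mice rebuilt with marrow of more than 1 genotype, and were lysed without culture. A group of 5 samples was wild type (WT), and a group of 5 was LKB1-deficient through deletion of Stk11, the gene of the LKB1 kinase that activates AMPK. The sources used here do not give the driver of the deletion, the age of the mice, the second genotype in each chimera, or whether samples came from separate mice. The p-values below therefore reflect how far these samples spread, and that spread may be technical. The comparison asks which of these transcripts differ when Treg cells lack LKB1.

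Initiation begins when eIF2, a GTPase, brings the initiator methionine tRNA to the small ribosomal subunit together with eIF1, eIF1A, eIF5 and the large scaffold eIF3. The eIF4F complex joins the cap-binding protein eIF4E, the scaffold eIF4G and the RNA helicase eIF4A, and loads the messenger RNA. Translation is held back at both steps: 4E-BP proteins occupy eIF4E until mTORC1 phosphorylates them, and stress kinases phosphorylate eIF2 so that it blocks its exchange factor eIF2B. LKB1 acts through AMPK on mTORC1, and T cells raise their translation when they are activated.

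Of 56 protein-coding mouse genes with such symbols in the RefSeq table of GRCm38.p6, 49 were measured. Eif1, Eif2s1, Eif3g and Eif4g1 were not analysed here, nor were Eif2s3x, Eif3j2 and Eif4ebp3, which share a probe set with another gene. The remaining members are Eif1-ps3, annotated as a pseudogene, and Eif2c5, annotated as a long non-coding RNA with the synonym Ago5. Not all members act in initiation: Eif5a and Eif5a2 are best known in elongation, Eif4a3 sits in the exon junction complex, and Eif4enif1 is a carrier of eIF4E.

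The arrays that bear on these results differed in what else they carried. Foxp3 was at a log2 signal of 10.95 to 11.19 on WT arrays and at 11.10 to 11.50 on LKB1-deficient arrays 2 to 5, but at 9.86 on LKB1-deficient array 1. Stk11 was at 6.61 to 6.95 on WT arrays and at 6.57, 6.01, 6.05, 6.71 and 6.78 on LKB1-deficient arrays 1 to 5, a difference of -0.36 (SE 0.16) that did not pass (adjusted p = 0.335, limma). The deleted exons are not named in the labels, so how far Stk11 signal can check them is limited. The mean of all 15 listed macrophage and dendritic cell markers lay between 6.39 and 6.73 in WT. In the LKB1-deficient group it was 7.02, 6.44, 6.66, 9.15 and 9.22 in array order. The mean of 11 of 13 B and plasma cell markers was at most 5.93 on 7 arrays, the exceptions being LKB1-deficient arrays 1 (7.04), 4 (6.90) and 5 (7.17). The mean of 4 of 8 erythroid and platelet markers was at most 5.80 apart from LKB1-deficient arrays 4 (6.79) and 5 (6.66). The mean of 8 of 10 T cell identity markers was 10.63, 10.62 and 10.58 on LKB1-deficient arrays 1, 4 and 5, below the 10.76 to 10.85 of the other arrays. Running codes in the sample descriptions place replicates 1 to 3 of both groups in one series (set 1) and replicates 4 and 5 in another (set 2), without saying what the codes mean.

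Most initiation factor transcripts had estimates slightly below 0 in LKB1-deficient against WT Treg cells, and so did every measured eIF3 subunit. With limma p-values adjusted by Benjamini-Hochberg across the 22180 genes and a threshold of 0.05, 2 of the 51 fell (Eif3m and Eif3b), 1 rose (Eif4a1) and 48 did not pass. These are 3.92% and 1.96% of the members, against 0.83% of all genes called lower, 0.234% called higher and 1.06% called in either direction. The unadjusted p was under 0.05 for 23 members lower (45.1%, against 8.8% of all genes) and 2 higher (3.92%, against 5.19%). Estimates were negative for 45 of the 51, against 49.2% of all genes, and the median difference was -0.24 on the log2 scale against 0.00 over all genes. In set 1 alone the members' median was -0.27, and in set 2 alone it was -0.12. All 5 LKB1-deficient arrays lay below all 5 WT arrays for 16 members (31.4%, against 3.71% of all genes) and above them for 1 (1.96%, against 0.996%). Differences ranged from -0.64 to 0.48. In bulk RNA of a sorted population, fewer cells of a type and less RNA per cell cannot be told apart.

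**Figure D1:**
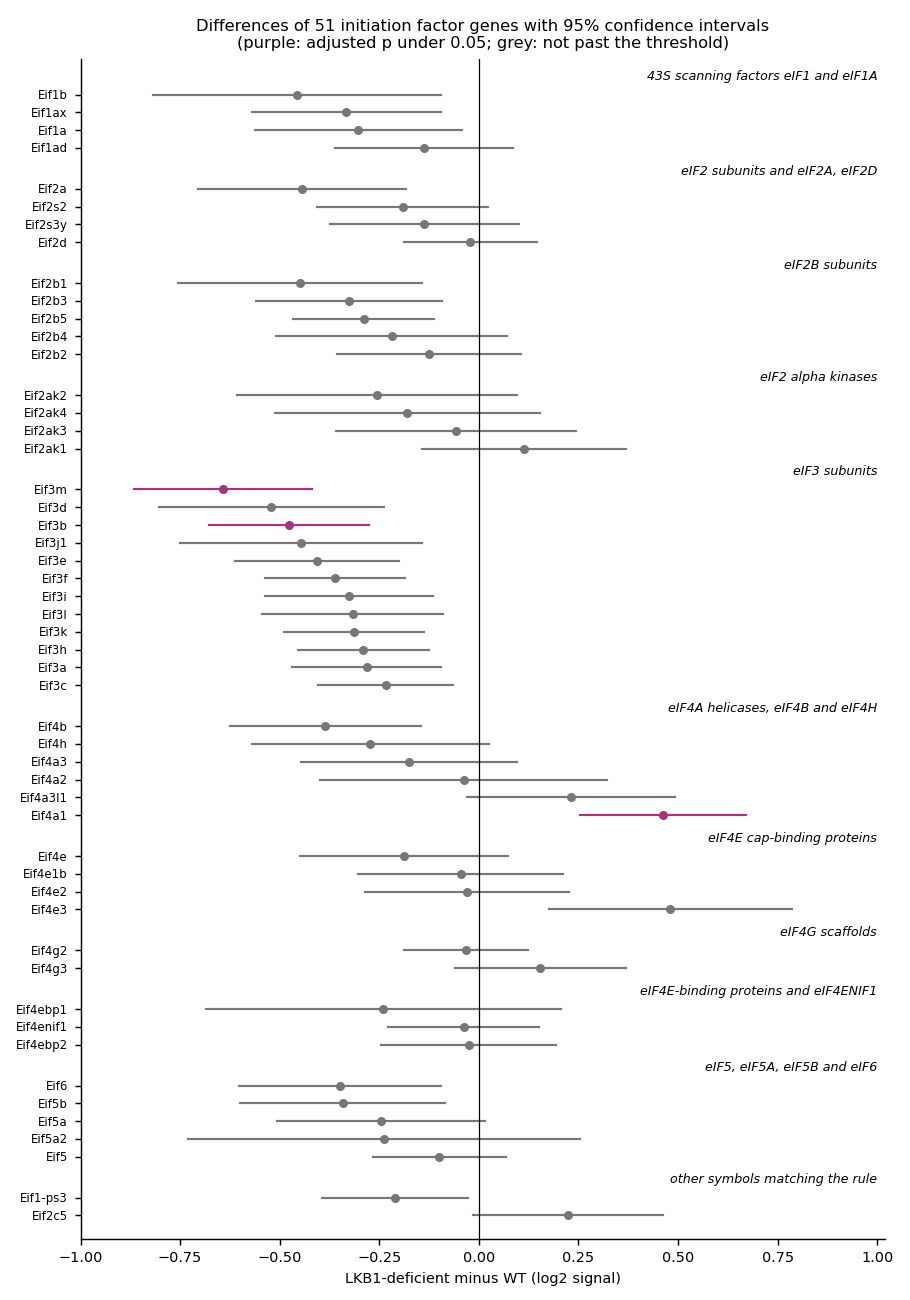
Difference between LKB1-deficient and WT arrays (log2 signal, x axis) for each of the 51 genes, grouped by role, with 95% confidence intervals from the limma fit (n = 5 arrays per group). Purple marks an adjusted p under 0.05, which only Eif3m, Eif3b and Eif4a1 reach, and all 12 eIF3 intervals lie below 0.

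The eIF3 complex is the scaffold that binds the small ribosomal subunit and gathers the other factors on it. Among its 12 measured subunit genes there were 2 that fell and 10 that did not pass, the adjusted p-values reaching 0.187, where 0.83% of all genes were called lower. All 12 estimates were negative, with a median of -0.34, against -0.18 over the other 39 members. For 11 of the 12 all LKB1-deficient arrays lay below all WT arrays, as they did for 3.71% of all genes. The exception was Eif3j1, whose product is a loosely attached subunit. The unadjusted p was under 0.05 for all 12, against 8.8% of all genes in that direction.

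Eif3m, which encodes a core subunit of the complex, was at 9.30, 9.04, 9.15, 8.91 and 8.94 on WT arrays 1 to 5 and at 8.41, 8.38, 8.66, 8.40 and 8.30 on LKB1-deficient arrays 1 to 5. The highest LKB1-deficient array, array 3, was below the lowest WT array, array 4. The mean went from 9.07 ± 0.16 to 8.43 ± 0.14 (SD, n = 5), which is 1.56-fold lower (log2 difference -0.64, SE 0.10, limma adjusted p = 0.0165). Without WT array 3 the call ended (-0.62, adjusted p = 0.0583), and it held in the other 9 fits that each left out 1 array.

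Eif3b, whose product anchors the eIF3g and eIF3i subunits, was at 8.83, 8.91, 8.91, 8.82 and 8.66 on WT arrays and at 8.25, 8.27, 8.37, 8.57 and 8.29 on LKB1-deficient arrays. LKB1-deficient array 4 was the only one within 0.1 of a WT array. It was 1.39-fold lower (-0.48, SE 0.09, limma adjusted p = 0.0335), and the call remained only without LKB1-deficient array 1 (0.0312) or 4 (0.0328), with adjusted p up to 0.109 in the other 8 fits.

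The remaining subunits kept the direction without passing. The nearest to the threshold were Eif3f, with a difference of -0.36 (SE 0.08, limma adjusted p = 0.0573), and Eif3e, at -0.41 (SE 0.09, 0.0647). Eif3f and Eif3h (-0.29, adjusted p = 0.0958) encode the paired MPN-domain subunits of the complex. Eif3h ran from 11.35 to 11.47 in WT and from 11.02 to 11.16 in LKB1-deficient samples, and Eif3c at 10.08 to 10.26 and 9.89 to 10.01. Eif3d, whose product can itself bind the cap, differed by -0.52 (adjusted p = 0.0844). It was within 9.80 to 9.86 on all WT arrays and spread from 8.87 to 9.62 on LKB1-deficient arrays, array 1 being lowest. A second, dimmer Eif3d probe set differed by -0.34 and its groups overlapped (6.68 to 7.12 in WT, 6.13 to 6.73 in LKB1-deficient). Eif3k (-0.31), Eif3i (-0.33), Eif3a (-0.28), Eif3l (-0.32) and Eif3c (-0.23) made up the rest. Eif3j1 (-0.45) was at 6.51 on WT array 1, within the LKB1-deficient range of 6.17 to 6.84. A brighter probe set that names Eif3j2 and Eif3j1 together was left out by the rule. It differed by -0.17, and its groups overlapped (8.09 to 8.79 in WT, 8.03 to 8.49 in LKB1-deficient).

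**Figure D2:**
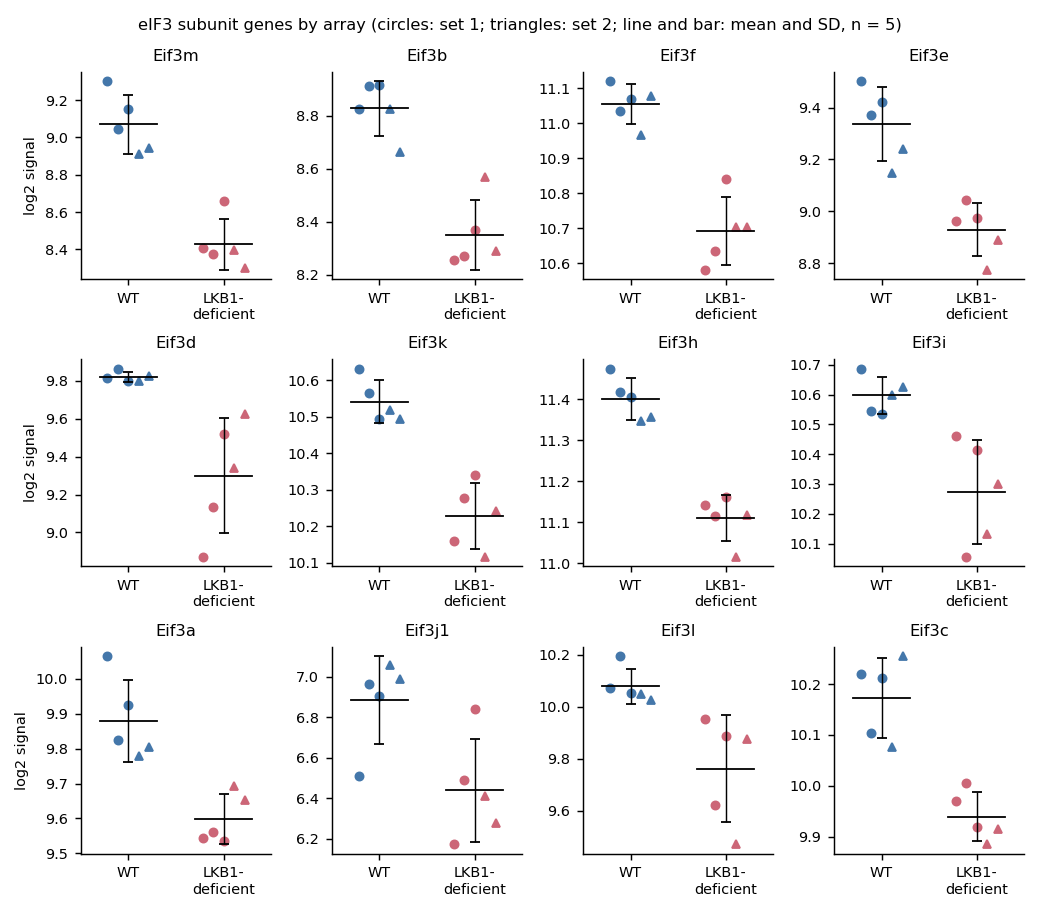
Log2 signal (y axis, its own range in each panel) of the 12 eIF3 subunit genes on each array, WT in blue and LKB1-deficient in red, circles for set 1 and triangles for set 2, with the mean and SD of 5 arrays. In every panel but that of Eif3j1, all LKB1-deficient points lie below all WT points.

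The direction held within both sets and on LKB1-deficient arrays 2 and 3, whose macrophage and B cell marker means lay within the WT range. Other markers were not all low there. Their means of 7 of 8 NK cell markers were 4.67 and 4.93, above the 4.51 to 4.63 of WT arrays. The erythroid and platelet mean of array 3 was 5.80, against at most 5.68 in WT. The median over the 12 subunits was -0.35 in set 1 alone and -0.33 in set 2 alone, with all 12 estimates negative in each. Without LKB1-deficient arrays 1, 4 and 5 it was -0.33, again with all 12 negative, and with the macrophage and B cell marker means as covariates it was -0.33. No eIF3 subunit passed in limma in these 4 fits, and in set 1 alone 0 of all 22180 genes passed. In order, 8, 4, 10 and 10 of the subunits had an unadjusted p under 0.05. So did 2247, 2916, 3166 and 2974 of all genes, in either direction. Eif3m was at -0.55 (limma adjusted p = 0.0854) without the 3 arrays and at -0.55 (0.0807) with the covariates, and Eif3b at -0.51 (0.0541) and -0.49 (0.0707). Both fits were chosen with earlier results of these data known.

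The sequences before the start sites of the 3 called genes are shown because they are the members on which the test turned. They run 5′ to 3′ over the 250 bases upstream of the RefSeq start (GRCm38.p6), and capitals mark the motifs searched on both strands: CACGTG, the E-box bound by Myc and related factors, and CCGGAA, the core bound by ETS factors.
Eif3m (chr2:105017028-105017277, minus strand): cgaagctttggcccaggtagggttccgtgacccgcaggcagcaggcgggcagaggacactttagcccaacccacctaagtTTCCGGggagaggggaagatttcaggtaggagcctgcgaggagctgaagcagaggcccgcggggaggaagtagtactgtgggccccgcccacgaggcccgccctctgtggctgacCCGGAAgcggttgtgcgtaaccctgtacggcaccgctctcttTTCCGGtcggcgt
Eif3b (chr5:140419055-140419304, plus strand): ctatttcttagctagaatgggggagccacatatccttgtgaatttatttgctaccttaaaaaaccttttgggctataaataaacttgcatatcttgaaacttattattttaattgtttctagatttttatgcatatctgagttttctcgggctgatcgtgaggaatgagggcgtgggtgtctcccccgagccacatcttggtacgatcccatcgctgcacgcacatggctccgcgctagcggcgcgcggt
Eif4a1 (chr11:69672424-69672673, minus strand): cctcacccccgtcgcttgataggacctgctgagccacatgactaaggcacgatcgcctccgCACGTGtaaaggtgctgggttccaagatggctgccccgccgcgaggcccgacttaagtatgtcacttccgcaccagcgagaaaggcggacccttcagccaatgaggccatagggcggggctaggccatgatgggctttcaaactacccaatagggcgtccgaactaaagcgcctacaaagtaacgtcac
The Eif3m stretch holds 3 ETS cores and no E-box, that of Eif4a1 holds 1 E-box and no ETS core, and that of Eif3b holds neither. Upstream sequence was found for 40 members, of which 8 (20%) had an E-box and 16 (40%) an ETS core, against 6.86% and 13.6% of 27025 genes. Of the 9 eIF3 subunit genes with upstream sequence, 2 had an E-box (Eif3f and Eif3k) and 5 an ETS core (Eif3c, Eif3d, Eif3f, Eif3l and Eif3m). The ETS core was chosen after the data were seen, base composition was not matched, and a match of letters is not a binding site.

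The eIF4 genes did not move together. Eif4a1, the main eIF4A helicase that unwinds the leader of messenger RNAs, was the member that rose, but its probe sets went opposite ways. The brighter one (17264865), used here by the rule, was at 11.85, 11.81, 11.61, 11.60 and 11.69 on WT arrays 1 to 5 and at 12.32, 12.16, 12.31, 12.11 and 11.98 on LKB1-deficient arrays 1 to 5. All LKB1-deficient arrays lay above all WT arrays, a 1.38-fold difference (0.46, SE 0.10, limma adjusted p = 0.0438).

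The other Eif4a1 probe set (17264844) was at 9.25, 9.42, 9.40, 9.26 and 9.37 on WT arrays and at 9.18, 9.14, 9.06, 9.07 and 9.20 on LKB1-deficient arrays. All LKB1-deficient arrays lay below all WT arrays there (-0.21, adjusted p = 0.254 when every probe set was tested on its own). The mean of both differed by 0.13 (adjusted p = 0.511). The labels and annotation do not place either along the gene, so the rise of Eif4a1 holds for 1 probe set and not for the gene as a whole. Its call remained only without LKB1-deficient array 1 (0.0432) or 5 (0.0417), with adjusted p up to 0.130 in the other 8 fits.

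Eif4e3, a cap-binding relative of eIF4E, was at 7.53, 7.64, 7.68, 7.50 and 7.69 on WT arrays and at 7.55, 8.41, 8.06, 8.21 and 8.21 on LKB1-deficient arrays. LKB1-deficient array 1 lay within the WT range and the other 4 lay above it. The difference of 0.48 (SE 0.14) did not pass (limma adjusted p = 0.137). Without that array it was 0.62 (0.0073). Without LKB1-deficient arrays 1, 4 and 5 it was 0.63 (0.0364) and with the marker covariates 0.63 (0.0398). Array 1 had the lowest value of its group, and a difference without it is larger by construction.

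The classical cap-binding chain gave small differences. Eif4e was at -0.19 (adjusted p = 0.530), its oocyte relative Eif4e1b at -0.05 and Eif4e2, a competitor of eIF4E for the cap, at -0.03. Eif4e1b lay near the dim end of the scale, at 3.98 to 4.46 in WT and 3.83 to 4.37 in LKB1-deficient, so its small difference says little. Eif4g2 (DAP5), an eIF4G relative without an eIF4E site, was the least variable member, at 10.67 to 10.72 on WT arrays and 10.64 to 10.70 on LKB1-deficient arrays (-0.03, 95% confidence interval -0.19 to 0.12). Eif4g3 was at 0.15 (-0.06 to 0.37). Eif4b, a cofactor of the helicase, differed by -0.39 (adjusted p = 0.129) with no overlap of the groups, 9.87 to 9.97 in WT and 9.17 to 9.79 in LKB1-deficient, and its relative Eif4h by -0.27 (0.404). Eif4a3 was at -0.18, and Eif4a3l1, a near copy of it whose signal may be shared with it, at 0.23. A brighter probe set that names both beside Gm5576 was left out by the rule. It differed by -0.33, and its groups overlapped (8.24 to 8.37 in WT, 7.59 to 8.26 in LKB1-deficient).

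Eif4ebp1, which encodes the mTORC1-regulated inhibitor 4E-BP1, went opposite ways in the sets. It was at 6.93, 6.79, 7.27, 6.81 and 7.24 on WT arrays and at 6.41, 6.59, 6.27, 7.31 and 7.25 on LKB1-deficient arrays. LKB1-deficient arrays 1 to 3 lay below all WT arrays, and arrays 4 and 5, which carry the macrophage transcripts, lay at the top of the WT range or above it. The difference was -0.24 (SE 0.21, adjusted p = 0.659) over all arrays, -0.57 in set 1 and 0.25 in set 2, and whether the sets differ was not tested. Eif4ebp2 (-0.03, 95% confidence interval -0.24 to 0.19) and Eif4enif1 (-0.04, -0.23 to 0.15) differed little.

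On some of its probe sets Eif4a2, the second eIF4A helicase, differed by set rather than by group. On its probe set with the highest mean it was at 11.14 to 11.49 on the 6 arrays of set 1 and at 10.75 to 11.01 on the 4 arrays of set 2, while LKB1-deficient minus WT was -0.04. A second probe set (17324396) gave 10.54 to 11.55 in set 1 and 10.15 to 10.36 in set 2. The remaining one (17324378) stayed within 10.99 to 11.20 on all 10 arrays, so the difference by set does not hold for the gene as a whole. Probe sets that name Eif4a2 beside Snord2 or Snora81 were left out, and which part of the gene each probe set covers is not given here.

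**Figure D3:**
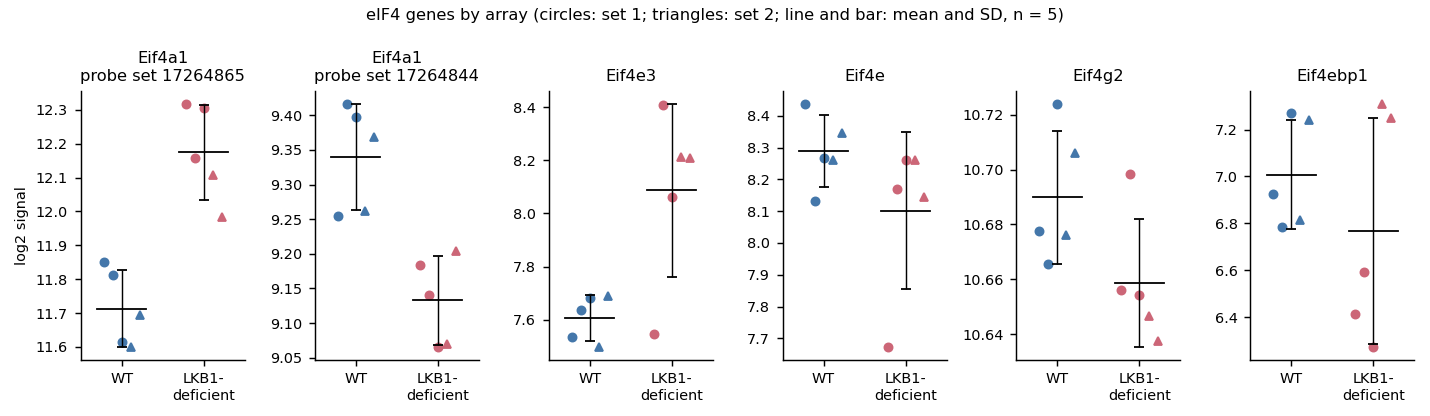
Log2 signal (y axis, its own range in each panel) on each array for both Eif4a1 probe sets, Eif4e3, Eif4e, Eif4g2 and Eif4ebp1, WT in blue and LKB1-deficient in red, circles for set 1 and triangles for set 2, with the mean and SD of 5 arrays. The Eif4a1 probe sets separate the groups in opposite directions, and the Eif4ebp1 triangles and circles of the LKB1-deficient group lie apart.

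Genes of the eIF2 cycle leaned lower without a call. The eIF2B exchange factor had all 5 subunit genes below 0, with a median of -0.29. Eif2b5, its catalytic subunit, was at 6.71 to 6.87 on WT arrays and 6.36 to 6.59 on LKB1-deficient arrays with no overlap (-0.29, SE 0.08, limma adjusted p = 0.123). Eif2b1, its regulatory alpha subunit, differed by -0.45 (0.164) and Eif2b3 by -0.33 (0.180). The lowest Eif2b1 value, 5.24, was that of LKB1-deficient array 1, against 5.77 to 6.04 on the other 4. Eif2b4 and Eif2b2 were at -0.22 and -0.12.

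Among the eIF2 genes, Eif2a, an initiator tRNA carrier distinct from the eIF2 alpha subunit, had the largest difference (-0.44, SE 0.12, limma adjusted p = 0.107). Its groups met at 8.29 in WT and 8.31 in LKB1-deficient. Eif2s2, the beta subunit, was at -0.19 and Eif2d at -0.02 (95% confidence interval -0.19 to 0.15). Eif2s3y, the Y-linked gamma subunit gene, was at 8.61 to 8.91 on WT arrays and 8.37 to 8.88 on LKB1-deficient arrays, so it was high on all 10 arrays (-0.14, adjusted p = 0.630).

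None of the 4 eIF2 alpha kinases passed in limma, and 0 had an unadjusted p under 0.05. Eif2ak2 (PKR, which senses double-stranded RNA) was at -0.26, Eif2ak4 (GCN2, which senses uncharged tRNA) at -0.18, Eif2ak3 (PERK, of the endoplasmic reticulum) at -0.06 and Eif2ak1 (HRI, which senses haem) at 0.11. Their adjusted p ran from 0.527 to 0.902. The 95% confidence intervals ran from -0.61 to 0.10 for Eif2ak2 and from -0.14 to 0.37 for Eif2ak1. A brighter probe set that names Aimp2 and Eif2ak1 together was left out by the rule. It differed by -0.25, and its groups overlapped (8.32 to 8.52 in WT, 7.98 to 8.72 in LKB1-deficient).

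The eIF1 and eIF1A group, gathered by symbol and not by a shown role in scanning, and the late factors were below 0 throughout. All 4 genes of the eIF1 and eIF1A group had negative estimates, with a median of -0.32: Eif1b (-0.46, limma adjusted p = 0.232), a paralog of the start codon factor eIF1, Eif1ax (-0.33, 0.178), the X-linked eIF1A gene, Eif1a (-0.30, 0.271) and Eif1ad (-0.14). For Eif1b the groups did not overlap by a narrow margin, 8.46 being both the highest LKB1-deficient and the lowest WT value at this rounding. LKB1-deficient array 1 was far below, at 7.44. Eif6, which keeps the large ribosomal subunit apart until needed, was at 7.56 to 7.75 in WT and 6.97 to 7.54 in LKB1-deficient, again without overlap (-0.35, 0.187). Eif5b, the GTPase that joins the subunits, was at -0.34 (0.204), Eif5a at -0.25, Eif5a2 at -0.24 and Eif5, the activator of the eIF2 GTPase, at -0.10. The pseudogene Eif1-ps3 differed by -0.21 with no overlap, and Eif2c5, at 3.79 to 4.44 on all arrays near the dim end of the scale, by 0.22.

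The arrays did not contribute alike. The median deviation of the eIF3 genes from their WT means was -0.38, -0.41, -0.25, -0.45 and -0.30 on LKB1-deficient arrays 1 to 5, and between -0.04 and 0.07 on WT arrays. For the other 39 members it was -0.35 on LKB1-deficient array 1 and -0.09, -0.13, -0.15 and -0.10 on arrays 2 to 5. Array 1 therefore stood apart for the other members and not for eIF3. It was the lowest of all 10 arrays for 20 of the 39 and for 4 of the 12 eIF3 genes. That array also had the lowest mean of the 5 Treg markers, 9.64 against 10.44 to 10.82 on the other 9. Its mean of 7 of 8 NK cell markers was the highest, 5.71 against 4.51 to 5.17. The NK cell mean was not raised on array 1 alone. It ran from 4.67 to 5.71 on LKB1-deficient arrays and from 4.51 to 4.63 on WT arrays. Of the 7 markers, Klrd1 rose without overlap of the groups (1.53, limma adjusted p = 0.017) and 6 did not pass. The part of the Treg and NK cell markers in the result was not tested. Over all genes the median deviation lay between -0.03 and 0.01. The spread was larger in the LKB1-deficient group for 40 of the 51 members and for 15260 of 22180 genes. The median SD of the members was 0.21 in the LKB1-deficient group and 0.09 in WT, and that of all genes was 0.21 and 0.15.

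**Figure D4:**
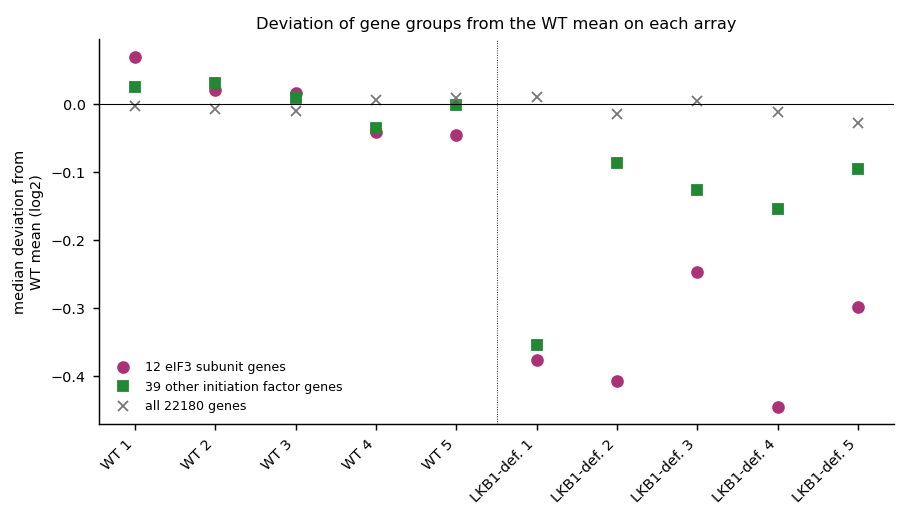
Median deviation from the WT mean (log2, y axis) on each of the 10 arrays (x axis) for the 12 eIF3 genes, the other 39 initiation factor genes and all 22180 genes. The eIF3 points lie between -0.45 and -0.25 on every LKB1-deficient array, while the other members are that low on array 1 alone.

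Other genes of translation gave few calls, and the medians of their lists ran from -0.35 to -0.07. Of 13 genes listed as elongation and termination factors 1 fell and 12 did not pass, where 0.83% of all genes were called lower. Their median was -0.27, and for 8 the LKB1-deficient arrays lay below all WT arrays, as they did for 3.71% of all genes. The gene that fell was Eef1e1, listed here though it encodes a scaffold protein of the aminoacyl-tRNA synthetase complex and not an elongation or termination factor. It was at 8.47, 8.05, 8.10, 8.08 and 8.07 on WT arrays and at 7.47, 7.34, 7.20, 7.58 and 7.75 on LKB1-deficient arrays (-0.69, SE 0.12, limma adjusted p = 0.0239). The groups were well apart, yet the call held in 5 of the 10 fits without 1 array (without any LKB1-deficient array, and in none without a WT array, adjusted p up to 0.0714). Abce1, which splits ribosomes after termination, was at -0.44 (0.0513) and Eef1d at -0.41 (0.0830).

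Of 9 mitochondrial translation factors none passed in limma, 5 had an unadjusted p under 0.05 and a lower level (8.8% of all genes did), and all 9 were below 0 (median -0.35). The smallest p-values were those of Mrrf, the ribosome recycling factor, at -0.82 (limma adjusted p = 0.0552), Gfm1 at -0.35 (0.0871), and Mtrf1 at -0.37 (0.127). Limma also called 0 of 19 poly(A)-binding and auxiliary proteins (median -0.11, 3 lower at an unadjusted p under 0.05 against the same 8.8%), where Dnajc3 (-0.24), Pabpc4 (-0.41) and Dhx29 (-0.22) had the smallest p.

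Genes that signal to eIF4F and eIF2 were mixed. None of 14 passed in limma, and the median was -0.08. At an unadjusted p under 0.05, 4 were lower and 1 was higher, against 8.8% and 5.19% of all genes. Rptor, the mTORC1 subunit that recruits 4E-BP1, was at 7.35, 7.28, 7.34, 7.11 and 7.38 on WT arrays and at 7.43, 8.07, 7.90, 7.58 and 7.54 on LKB1-deficient arrays. All of the latter were above all of the former (0.41, SE 0.13, adjusted p = 0.151), most so on arrays 2 and 3. Rheb, the GTPase that activates mTORC1, was at -0.27 and Ppp1cc, a phosphatase subunit, at -0.37.

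Among 22 genes listed as targets of ATF4 and CHOP, 1 fell and 21 did not pass (median -0.07), where 0.83% of all genes were called lower. The list also holds Atf4 itself (-0.02). At an unadjusted p under 0.05 in limma, 4 were lower and 1, Trib3 (0.32), was higher, against 8.8% and 5.19% of all genes. Shmt2, a mitochondrial enzyme of one-carbon metabolism, was 8.48 to 8.60 on WT arrays and 7.86 to 8.30 on LKB1-deficient arrays (-0.48, SE 0.09, limma adjusted p = 0.0368). Its call remained only without LKB1-deficient array 1 (0.0335) or 2 (0.0245), with adjusted p up to 0.101 elsewhere. Psat1, of serine synthesis, was at -0.54 (0.110) and the amino acid carrier chain Slc3a2 at -0.25 (0.174).

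**Figure D5:**
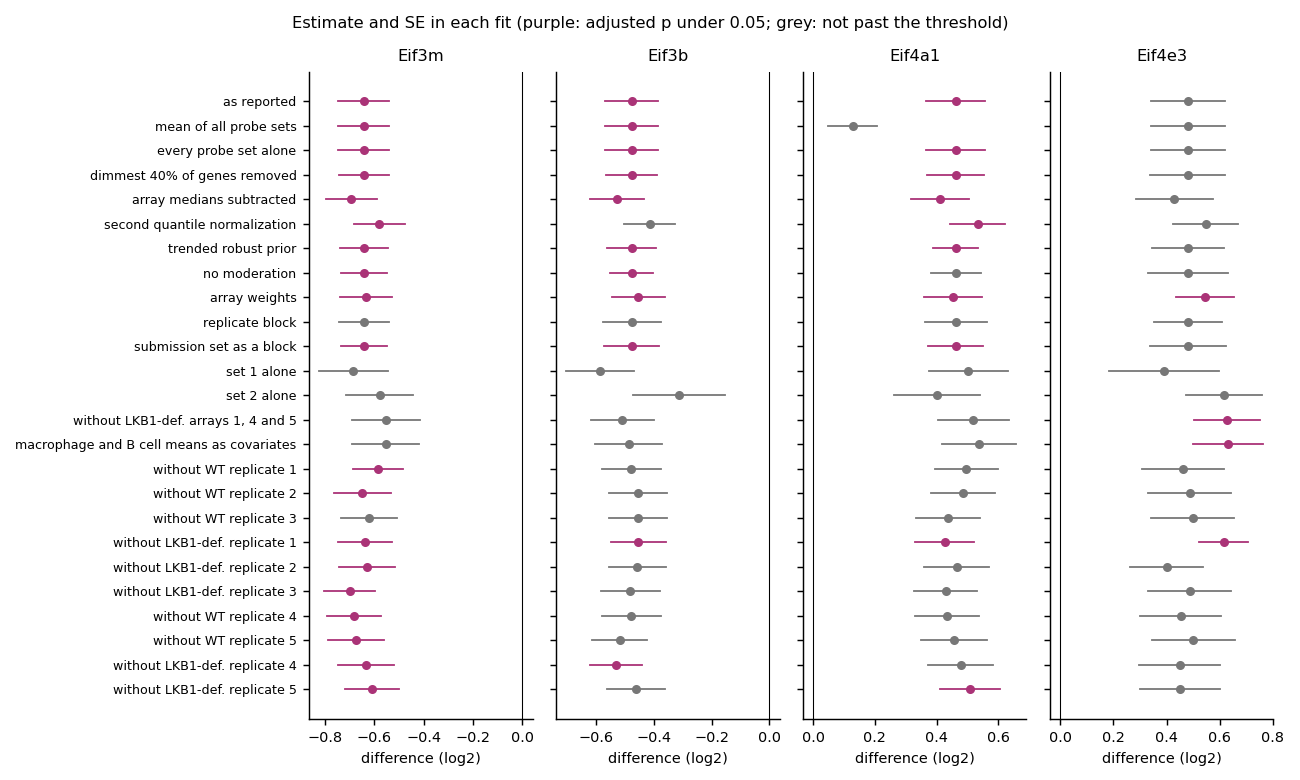
Estimate and SE (log2, x axes) of Eif3m, Eif3b, Eif4a1 and Eif4e3 as reported and in 24 other fits (y axis), purple where the adjusted p was under 0.05 and grey otherwise. Every estimate keeps its side of 0, Eif3m lies between -0.70 and -0.55, and Eif4a1 drops to 0.13 where its probe sets are averaged.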

How the data were processed

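Single-channel arrays of 41345 probe sets were hybridised with amplified total RNA of 10 samples. Values were deposited in log2 units, and RMA and Partek 6.6 are named in the submitters' processing notes. Their order, settings and genome build: not given in the sources used here. Detection calls do not come with the table, so a low value cannot be told from background, and the number of arrays limits the precision. Probe sets with 1 platform symbol (23521, against 1814 with several and 16010 with none) were used, without a filter on low signal. Groups and replicate numbers came from the titles. LKB1-deficient arrays were compared with WT arrays in limma 3.58.1 (R 4.3.3), lmFit and eBayes with no covariate, and Benjamini-Hochberg adjustment over all 22180 genes. Every adjusted p is from limma unless another fit is named. Code was tested on simulated data. Same-numbered arrays did not deviate together (correlations of -0.08 to 0.10), and the numbers were not taken as pairs. These correlations cannot settle whether a shared number marks a shared mouse, since LKB1-deficient arrays also differed in markers of other cells. The fit with the replicate number as a block is given below.

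The members and lists were chosen with earlier results of these data known. Named genes were all called members, the 3 with the smallest p in each role, the 2 nearest the threshold, those on sex chromosomes, and the 3 with the smallest p in each wider list. Others appear as counts, ranges or single values, since all are members. The alternatives were other probe set summaries, scalings, priors, weights, blocks, covariates, thresholds and array sets. All 51 members matched RefSeq by Entrez identifier.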

Additional observations from a re-analysis of the deposited data

Results flagged for a closer look

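A gap test within each group of 5 arrays, run on 102 groups of values, marked 6 values, on 4 arrays, as far from the rest of their group, and chance marks about 1 in 20 groups. LKB1-deficient array 1 was low for Eif4e, at 7.67 against 8.15 to 8.26 on the other 4, and for Eif4h, at 8.07 against 8.65 to 8.82. WT array 1 was low for Eif3j1, at 6.51 against 6.90 to 7.06, and high for Eif1-ps3, at 6.88 against 6.65 to 6.70. WT array 2 was high for Eif3l, at 10.19 against 10.02 to 10.07. WT array 4 was low for Eif2s3y, at 8.61 against 8.82 to 8.91.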

How the results depend on the processing

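Values are numbers of members called higher and lower, then of wider-list genes called higher and lower, where the reported fit gave 1, 2, 0 and 2. Every member called lower in any fit was an eIF3 subunit, so the eIF3 counts equal the lower counts. They were 1, 6, 0 and 7 with array medians subtracted, 1, 7, 0 and 8 with a trended robust prior, 2, 5, 0 and 5 with array weights, 0, 5, 0 and 5 without moderation, 1, 4, 0 and 4 without the dimmest 40% of genes, and 1, 3, 0 and 4 with the submission set as a block. Of all genes, those fits called 415, 386, 464, 149, 356 and 260 in that order, against 236 in the reported fit. The counts were 1, 1, 0 and 1 after a second quantile normalization (170 of all genes called). They were 0, 2, 0 and 2 with the mean of all probe sets (229 of all genes). Limma called 1, 0, 1 and 4 in 2 fits, with the marker covariates and with LKB1-deficient arrays 1, 4 and 5 removed, and Eif4e3 was the member called each time. Of all genes, 311 and 357 were called in these fits. Limma called 0, 0, 0 and 0 in set 1 alone, where 0 of all genes were called. It called 0, 0, 1 and 0 in set 2 alone, where 469 of all genes were called, 423 of them higher. At an adjusted p under 0.01 it called none of the members or list genes, and 25 of all genes. At an unadjusted p under 0.05 there were 21, 21, 20 and 7 members in the covariate fit, the fit without 3 arrays, set 1 and set 2. In the same order, 2974, 3166, 2247 and 2916 of all 22180 genes were under it. With the replicate number as a block 0, 0, 0 and 0 were called, and 50 of all genes were called against 236. That fit had 24 members and 2940 of all 22180 genes at an unadjusted p under 0.05. By correlation, 3 of 10 arrays matched best with their own number. Leaving out 1 array gave 0 to 2 members higher, 0 to 2 lower (eIF3 too), 0 to 0 and 0 to 4 list genes, a member median of -0.26 to -0.17 and an eIF3 median of -0.38 to -0.33. The fits without 1 array called 38 to 520 of all genes. The causes were not tested. The member median was -0.12 in set 2 alone, as given beside the result.

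The signs that turned were those of members that had not passed. After a second quantile normalization Eif4g2 was at 0.043, Eif4enif1 at 0.025, Eif4ebp2 at 0.023, Eif2d at 0.044, Eif4e2 at 0.037 and Eif4a2 at 0.0004. With array weights Eif4ebp2 was at 0.024 and Eif4e2 at 0.034, and with the mean of all probe sets Eif4a2 was at 0.056. In set 2 Eif4ebp1 was at 0.25, Eif4e2 at 0.15, Eif4a2 at 0.098, Eif2ak3 at 0.048 and Eif4ebp2 at 0.0036. Without LKB1-deficient arrays 1, 4 and 5, Eif2s3y was at 0.020, Eif2ak2 at 0.043, Eif4enif1 at 0.070 and Eif5a at 0.021. With the covariates they were at 0.023, 0.067, 0.070 and 0.016, with Eif2ak3 at 0.044 and Eif4a2 at 0.0034. Over the fits without 1 array Eif4ebp2 ran from -0.074 to 0.028, Eif4e1b from -0.10 to 0.031, Eif4a2 from -0.14 to 0.045, Eif2ak3 from -0.13 to 0.036, Eif4e2 from -0.090 to 0.067 and Eif2d from -0.039 to 0.0056.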
